A study of Homo sapiens with 6 samples.

Results

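The genes described here encode the proteins that license, fire and copy from DNA replication origins. They were 52 symbols taken from a list of textbook replication factors and looked up in a gene table of 17177 symbols. The rule itself used symbols only, but members and lists were chosen with earlier results of these data known. All 52 were present, and all 52 passed the filter for testing, a mean of at least 1 FPKM (fragments per kilobase of transcript, scaled to the mapped fragments of the library, which corrects for gene length and depth), as did 11726 genes in the whole table. RNA came from NCI-H660, an established human cell line of neuroendocrine prostate cancer with the genotype label WT, collected on day 3 of treatment. The 3 PBS libraries were from cells given the buffer PBS (phosphate-buffered saline), and the 3 PP libraries were from cells given pyrvinium pamoate, an anthelmintic that the study tested as an inhibitor of the RNA-binding protein ELAVL3. The dose of PP behind these libraries was not given in the sources used here. Every library came from the same line, and the p-values below measure the spread between 3 libraries of each treatment.

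Replication is prepared in G1 phase, when the origin recognition complex (ORC) together with CDC6 and CDT1 loads the ring-shaped MCM2-7 helicase onto DNA. In S phase, the kinases CDK2 and CDC7 activate the helicase with CDC45 and the GINS complex, polymerase alpha-primase lays primers, and polymerases delta and epsilon extend them with the help of the PCNA clamp. Many of these genes are transcribed in a wave at the entry to S phase under the control of E2F factors, so that their RNA is abundant in populations that divide.

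The libraries were alike in depth, with 29064154 to 32481049 gene counts recovered from the FPKM values. The markers fixed for the line were checked first. Of 7 neuroendocrine markers, 5 fell (71.4%, against 34.4% of all tested genes) and 1 rose (14.3%, against 38.1%). *CHGA*, a neuroendocrine granule protein gene, was at 43.3 FPKM with PBS and 24.8 FPKM with PP (log2 fold change -0.78, limma adjusted p = 8.92e-08). The leukocyte markers *PTPRC*, *CD3E* and *LYZ*, the fibroblast markers *COL1A2*, *COL3A1*, *PDGFRB* and *DCN*, and the endothelial markers *PECAM1* and *VWF* were below 1 FPKM in all libraries. Of the other markers on these lists, the fibroblast marker *COL1A1* rose from 3.303 to 4.16 FPKM (limma adjusted p = 0.002), the endothelial marker *CDH5* fell from 3.60 to 2.52 FPKM (limma adjusted p = 0.00112), and the leukocyte marker *CD68* was not called at 1.41 against 1.09 FPKM. Their part in the results below was not tested. The summed levels of the leukocyte list were 1.32 to 1.92 FPKM with PBS and 0.872 to 1.34 FPKM with PP, those of the fibroblast list 4.03 to 4.47 and 4.48 to 4.81 FPKM, and those of the endothelial list 4.25 to 4.69 and 2.96 to 3.38 FPKM.

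The replication genes did not move as a block. With PP, 12 of the 52 rose, 20 fell and 20 did not pass the test, which was limma on log2(FPKM + 1) with Benjamini-Hochberg adjustment over all tested genes and an adjusted p threshold of 0.05. Among all tested genes 38.1% were called higher and 34.4% lower, so the share of replication genes called lower (38.5%) was near the background and the share called higher (23.1%) was below it. The genes that rose lay at the origin-loading step (*ORC2*, *ORC4*, *ORC5*, *CDC6*, *CDT1*), at 1 MCM subunit (*MCM6*), in the primase (*PRIM1*), in the clamp loader (*RFC1*, *RFC2*, *RFC4*), in the single-strand binding complex (*RPA2*) and in chromatin assembly (*CHAF1A*). The genes that fell most made deoxynucleotides (*RRM2*, *TYMS*) or guarded the fork (*TIMELESS*).

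Changes were small for most members. The log2 fold changes ran from -0.81 for *RRM2* to 0.75 for *CDC6*, with a median of -0.05 beside 0.02 over all tested genes. The median size of change, regardless of direction, was 0.14 on the log2 scale for the members and 0.27 for all tested genes. A change of over 0.5 on that scale was seen for 5 of 52 members (9.62%) and for 23.8% of all tested genes. The study's methods give a cutoff for changed genes of P under 0.001, taken here as unadjusted, with log2 values beyond 1 upward or -1 downward. None of the 52 members passed it, a count of 0 by limma and again by limma-voom on recovered counts, while 5.18% of all tested genes did. At an unadjusted p under 0.05, limma gave 33 of 52, against 74.3% of all tested genes. The values of the PBS and PP libraries did not overlap for 34 members (65.4%), against 75.0% of all tested genes.

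The summed level of the 52 genes was slightly lower with PP. It was 2472, 2480 and 2487 FPKM in the PBS libraries and 2318, 2298 and 2294 FPKM in the PP libraries, so that the treatments did not overlap. As a share of all FPKM this was 0.775, 0.778 and 0.779% with PBS and 0.750, 0.744 and 0.751% with PP. The sum weighs abundant genes most, and 12 of the 52 rose. Among the abundant genes that fell were *PCNA* (308.8 against 262.9 FPKM), *TYMS* (147.2 against 102.2 FPKM), *MCM2* (140.0 against 109.8 FPKM) and *RRM2* (69.7 against 39.4 FPKM). In bulk RNA, a smaller number of cells in S phase and less RNA of the 52 genes per cell cannot be told apart. Markers of cycling cells fixed as a separate list moved with the treatment too. Of these, 9 of 10 fell and none rose, beside 34.4% lower and 38.1% higher among all tested genes. Their median log2 fold change was -0.48, beside 0.02 over all tested genes. The summed level of these markers was 723.8 to 743.1 FPKM with PBS and 538.3 to 547.3 FPKM with PP. The proliferation marker *MKI67* (44.6 against 28.9 FPKM), the survival and cytokinesis factor *BIRC5* (37.5 against 24.2 FPKM) and the mitotic cyclin *CCNB1* (59.9 against 40.1 FPKM) had the largest changes (log2 fold changes -0.61, -0.61 and -0.57). The part that cell cycle distribution had in the changes of the replication genes was not tested.

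**Figure D1:**
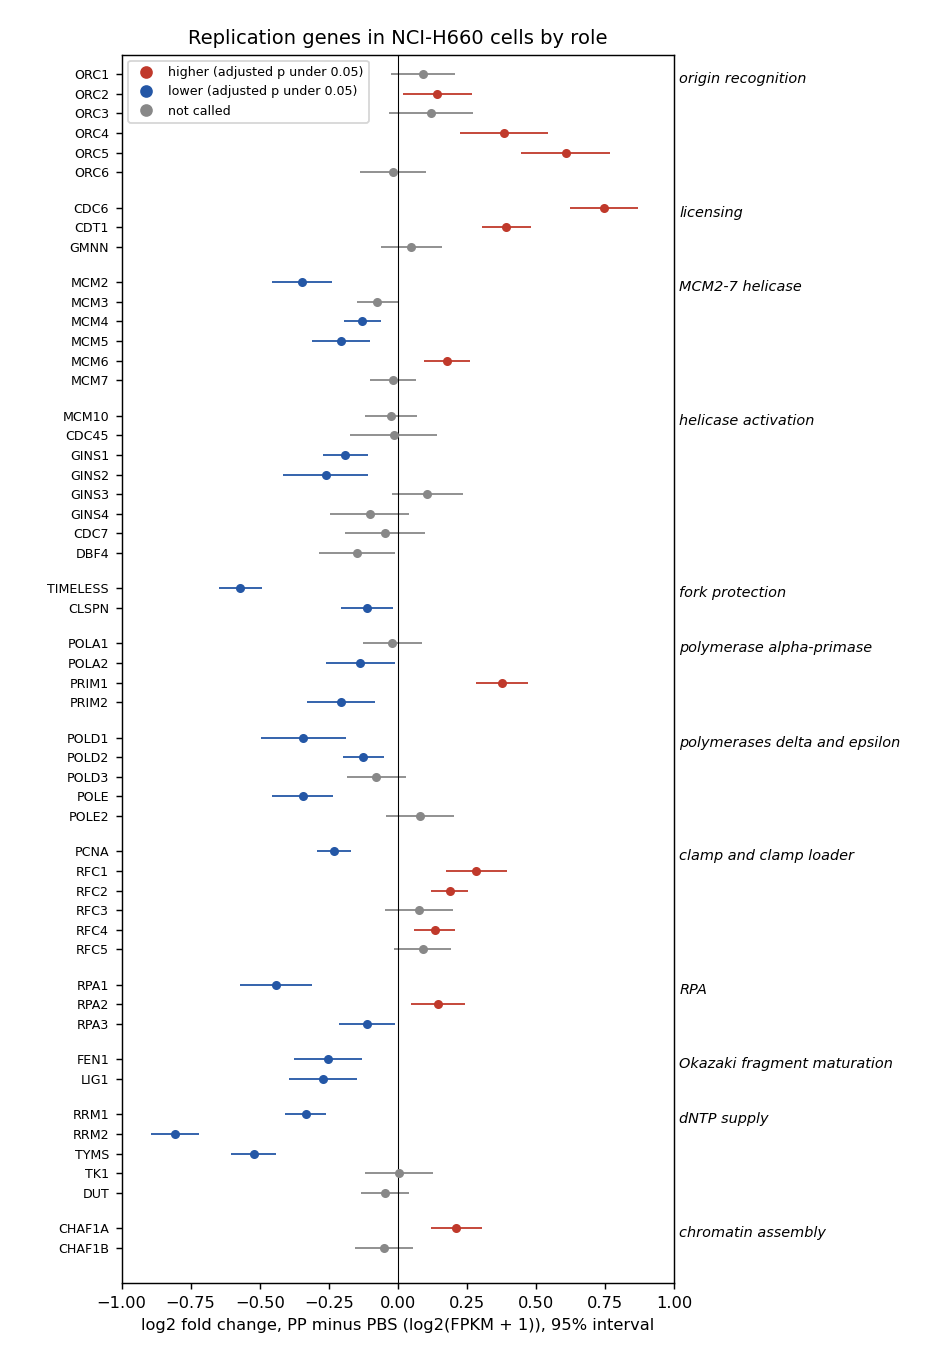
Log2 fold change (PP minus PBS, log2(FPKM + 1) scale) of each of the 52 replication genes with its 95% confidence interval, ordered by role and coloured by call at an adjusted p under 0.05. Origin recognition and licensing genes sit at or above 0 apart from ORC6 (-0.02), while RRM2 (-0.81), TIMELESS (-0.57) and TYMS (-0.52) lie farthest below it.

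The origin recognition complex marks where replication can start. Of its 6 subunits, 3 rose and none fell, with a median log2 fold change of 0.13. *ORC5*, an ATP-binding subunit, had 7.30, 6.51 and 6.49 FPKM in the PBS libraries and 9.90, 10.6 and 12.04 FPKM in the PP libraries. Every PP library was above every PBS library, and the means differed 1.60-fold (6.76 ± 0.461 against 10.8 ± 1.09 FPKM, SD, n = 3). The log2 fold change was 0.61 ± 0.072 (SE, limma adjusted p = 2.99e-05). *ORC4*, another ATPase-type subunit, rose 1.37-fold, from 4.95, 5.08 and 4.91 to 6.62, 6.17 and 7.68 FPKM (log2 fold change 0.38 ± 0.071, limma adjusted p = 0.000693). The rise of *ORC2* was small, from 10.3, 10.4 and 10.4 to 11.3, 10.9 and 12.6 FPKM, and its limma adjusted p of 0.0415 passed the threshold narrowly. Its call was lost without any 1 of 4 libraries, among them PP replicate 3, without which the log2 fold change was 0.09 against 0.14. *ORC1*, the subunit whose protein is cell cycle regulated, *ORC3* and *ORC6* were not called, with log2 fold changes of 0.09, 0.12 and -0.02.

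Licensing factors had the highest median log2 fold change of the 12 roles (0.39), with 2 of 3 called higher (66.7%, against 38.1% of all tested genes). CDC6 and CDT1 load the helicase at origins, and geminin, the product of *GMNN*, binds CDT1 and blocks it once S phase has begun. *CDC6* had 24.2, 21.0 and 22.1 FPKM in the PBS libraries and 39.6, 36.6 and 38.7 FPKM in the PP libraries, with no overlap. Its mean rose 1.71-fold, from 22.4 ± 1.63 to 38.3 ± 1.55 FPKM (log2 fold change 0.75 ± 0.054, 95% CI 0.63 to 0.87, limma adjusted p = 7.92e-07). The depth behind this was at least 1840 counts in each PBS library and at least 3303 in each PP library. *CDT1* had 30.9, 31.6 and 29.7 FPKM with PBS and 40.8, 41.5 and 39.7 FPKM with PP. Its 1.32-fold rise (log2 fold change 0.39 ± 0.039, limma adjusted p = 7.75e-06) likewise separated all libraries. *GMNN* was not called, at 19.9, 18.4 and 20.9 FPKM with PBS and 20.5, 20.5 and 20.3 FPKM with PP, with a 95% confidence interval of -0.06 to 0.16 for its log2 fold change. The ratio of *CDT1* to its inhibitor *GMNN* was thus 1.55, 1.72 and 1.42 in the PBS libraries and 1.99, 2.03 and 1.96 in the PP libraries. This ratio, taken within each library on log2(FPKM + 1), was higher by 0.34 with PP (exact two-sided permutation p = 0.1, the smallest that 3 against 3 libraries allow, and 0.1 after adjustment over the 6 ratios compared).

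Promoter sequences were taken from RefSeq (GRCh38.p14, 250 bases before to 50 bases after each start) for the 5 called members that changed most, 2 that rose (*CDC6*, *ORC5*) and 3 that fell (*RRM2*, *TIMELESS*, *TYMS*). They show which sequence words linked to S-phase transcription lie at genes that moved in opposite directions. Bases in capitals mark the words searched on both strands: the E2F-type words TTTGGCGC, TTTCCCGC, TTTCGCGC and TTTGCCGC, the CHR (cell cycle homology region) word TTTGAA, the CCAAT box bound by NF-Y, and the E-box CACGTG. Only these exact words were marked and counted. A near match stays in lower case, such as tttggcgg in the stretch before the *CDC6* start. The stretches for *CDC6* and *ORC5* cover the 150 bases before the start, at chr17:40287729-40287878 on the plus strand and chr7:104208014-104208163 on the minus strand, and for *CDC6* 20 bases just after the start at chr17:40287880-40287899 are added because they hold its E2F-type word.
CDC6 before the start: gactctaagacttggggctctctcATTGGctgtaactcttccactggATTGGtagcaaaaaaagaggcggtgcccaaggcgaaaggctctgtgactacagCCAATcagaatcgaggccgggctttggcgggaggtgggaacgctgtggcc
CDC6 after the start: ttcggaTTTGGCGCgagcgc
ORC5 before the start: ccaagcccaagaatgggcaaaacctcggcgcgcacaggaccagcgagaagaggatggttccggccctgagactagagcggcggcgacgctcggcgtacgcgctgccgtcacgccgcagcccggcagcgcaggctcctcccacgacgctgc

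*CDC6* carried 3 CCAAT words, 2 of them on the opposite strand (read as ATTGG), whereas none of the words was found in the printed stretch of *ORC5*. Over all genes, an E2F-type word lay in the promoter window of 3.99% of 27305 genes, and of 22 of the 46 members that could be matched to the promoter table (47.8%). These 22 were 3 of 11 members that rose, 9 of 17 that fell and 10 of 18 that were not called. The CCAAT word was in 58.7% of matched members and 39.7% of all genes, the E-box in 17.4% and 8.77%, and the CHR word in 6.52% and 18.2%. A word in a window is a description of its letters and no evidence that a factor binds there.

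**Figure D2:**
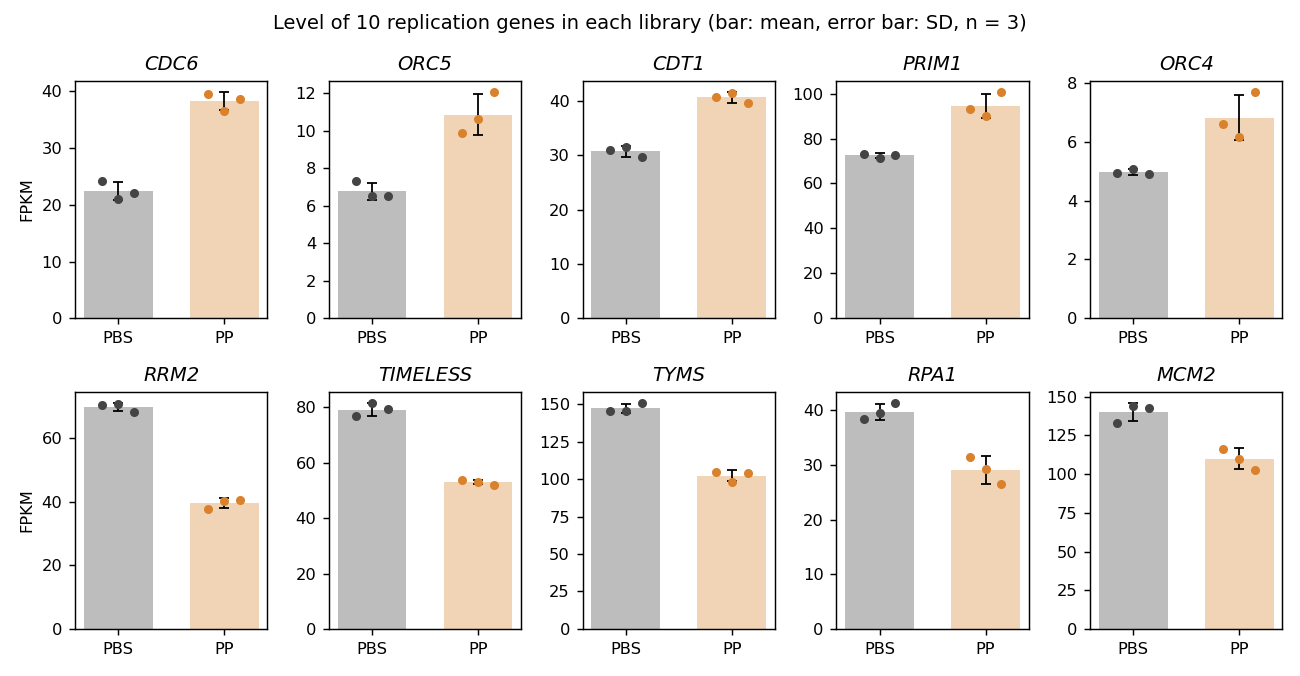
FPKM in each of the 6 libraries for 10 replication genes that changed, with a point for each library, the mean as a bar and the SD as an error bar (n = 3). CDC6, CDT1, ORC5 and PRIM1 are higher in every PP library, and RRM2, TIMELESS and TYMS are lower in every PP library.

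The MCM2-7 complex is the ring that unwinds the template, with each of its 6 subunits present once. *MCM2*, *MCM4* and *MCM5* fell, *MCM6* rose, and *MCM3* and *MCM7* were not called. *MCM2* had 133.2, 143.8 and 143.0 FPKM in the PBS libraries and 116.5, 110.1 and 102.9 FPKM in the PP libraries. All PP values lay below all PBS values, and the mean was 140.0 ± 5.91 against 109.8 ± 6.81 FPKM (log2 fold change -0.35 ± 0.049, limma adjusted p = 9.69e-05). *MCM5* fell from 21.9, 24.6 and 23.6 to 19.98, 20.1 and 20.3 FPKM (log2 fold change -0.21 ± 0.047, limma adjusted p = 0.0027), and the change of *MCM4* was smaller at -0.13 (limma adjusted p = 0.0033). *MCM6* went the other way, from 38.1, 38.8 and 36.8 to 42.5, 43.8 and 42.7 FPKM (1.13-fold, log2 fold change 0.18 ± 0.037, limma adjusted p = 0.00138). The ratio of *MCM2* to *MCM6* FPKM accordingly was 3.50, 3.71 and 3.89 with PBS and 2.74, 2.52 and 2.41 with PP. *MCM3* was at -0.07 and *MCM7* at -0.02 on the log2 scale. *MCM3* values did not overlap between treatments, but its limma adjusted p was 0.0687. Levels per length differed 6.69-fold between the most and the least abundant subunit in the PBS libraries, *MCM4* and *MCM5*, although the proteins act in equal numbers.

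Of the 8 genes that activate the helicase, 2 fell (25.0%, below the 34.4% of all tested genes) and 6 were not called. None rose, against 38.1% of all tested genes. Both that fell encode GINS subunits. *GINS2* had 15.4, 13.7 and 16.7 FPKM with PBS and 12.7, 13.1 and 11.8 FPKM with PP (log2 fold change -0.26 ± 0.069, limma adjusted p = 0.00606). *GINS1* fell from 29.2, 29.1 and 29.3 to 25.0, 25.7 and 25.7 FPKM, a change of -0.19 ± 0.036 (limma adjusted p = 0.000816) with no overlap. The other GINS genes, *GINS3* (0.11) and *GINS4* (-0.10), did not pass the test, nor did *CDC45* (-0.02) or *MCM10* (-0.03), which encodes a scaffold needed to open the origin. The kinase gene *CDC7* had 26.1, 23.5 and 22.9 FPKM with PBS and 21.5, 23.4 and 25.4 FPKM with PP, and overlapped between treatments. Its activating subunit *DBF4* had 24.3, 21.2 and 22.3 FPKM with PBS and 18.8, 20.3 and 21.7 FPKM with PP, with a limma adjusted p of 0.0514. The log2 ratio of *CDC7* to *DBF4* was 0.10, 0.14 and 0.04 in the PBS libraries and 0.18, 0.19 and 0.21 in the PP libraries (exact two-sided permutation p = 0.1, adjusted 0.1).

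**Figure D3:**
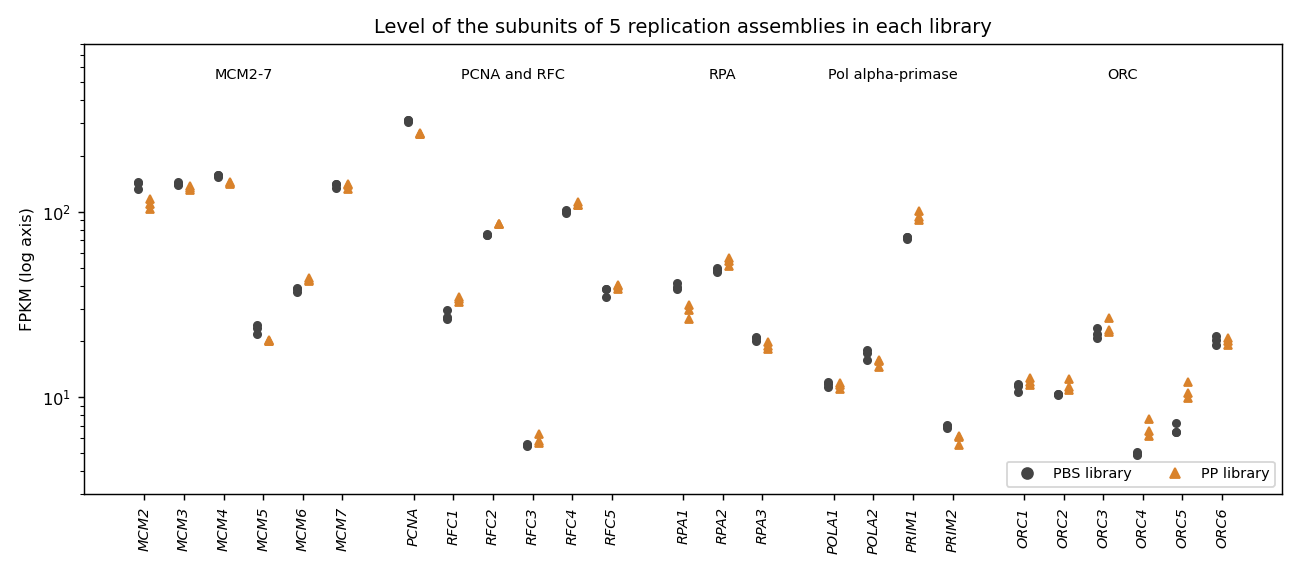
Level in FPKM of the subunits of replication complexes in the 3 PBS and 3 PP libraries, as points on a log axis. Subunits of 1 complex differ in level and in direction, as for MCM2 (140.0 against 109.8 FPKM) and MCM6, which rose 1.13-fold.

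Both fork protection genes among the 52 were called lower, *CLSPN* narrowly, beside 34.4% of all tested genes. TIMELESS and claspin, the product of *CLSPN*, travel with the fork and link it to the checkpoint kinase ATR. *TIMELESS* had 76.8, 81.5 and 79.6 FPKM in the PBS libraries and 53.7, 53.3 and 52.2 FPKM in the PP libraries. The PP values lay in a narrow band far below the PBS values, and the mean fell to 0.669 of its PBS level, from 79.3 ± 2.35 to 53.0 ± 0.787 FPKM (log2 fold change -0.57 ± 0.035, 95% CI -0.65 to -0.49, limma adjusted p = 2.37e-07). *CLSPN* changed by less, from 18.6, 18.5 and 18.8 to 16.4, 17.4 and 17.6 FPKM (log2 fold change -0.11 ± 0.043, limma adjusted p = 0.0363). Its call was lost in 5 of the 6 fits that left out 1 library, all but the one without PP replicate 3, with log2 fold changes between -0.13 and -0.08 over the 6. *TIPIN*, listed with the further fork factors, was not called at 6.85 against 6.65 FPKM (log2 fold change -0.04, limma adjusted p = 0.613). The 150 bases before the *TIMELESS* start, at chr12:56449427-56449576 on the minus strand, held a CCAAT word and an E-box and no E2F-type word.
TIMELESS before the start: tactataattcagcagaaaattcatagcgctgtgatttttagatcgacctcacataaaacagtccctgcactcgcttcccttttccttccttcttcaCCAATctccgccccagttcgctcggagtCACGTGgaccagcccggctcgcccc

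Polymerase alpha-primase starts each new strand, with *PRIM1* and *PRIM2* encoding the small catalytic and the large subunit of the primase. The primase subunits moved in opposite directions. *PRIM1* had 73.3, 71.4 and 72.8 FPKM with PBS and 93.2, 90.1 and 100.6 FPKM with PP, and rose 1.30-fold (log2 fold change 0.38 ± 0.043, limma adjusted p = 1.98e-05) with no overlap. *PRIM2* had 7.09, 6.80 and 7.04 FPKM with PBS and 5.53, 6.16 and 6.09 FPKM with PP, and fell to 0.850 of its PBS mean (log2 fold change -0.20 ± 0.055, limma adjusted p = 0.00706), also with no overlap. *POLA2*, the accessory subunit, passed the test narrowly (18.0, 17.3 and 15.8 against 14.6, 15.9 and 15.7 FPKM, limma adjusted p = 0.0486), although the treatments overlapped. Its call was lost in 5 of the 6 fits that left out 1 library, all but the one without PBS replicate 3, with log2 fold changes between -0.19 and -0.10 over the 6. The catalytic subunit *POLA1* was at -0.02 and was not called. Exons of *PRIM1* share 4.20% of their bases with *NACA* on the same strand. Same-strand shares were 2.23% for *FEN1* (with *FADS2*) and 1.74% for *CHAF1B* (with *MORC3*). What the shared bases did to the counts was not tested.

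The leading and lagging strands are extended by polymerases epsilon and delta. The catalytic subunits of both fell, each to 0.778 of its PBS mean. *POLE* had 21.8, 23.9 and 23.8 FPKM in the PBS libraries and 18.7, 18.1 and 17.3 FPKM in the PP libraries (log2 fold change -0.34 ± 0.049, limma adjusted p = 0.000115). *POLD1* had 15.7, 17.5 and 16.8 FPKM with PBS and 14.4, 12.6 and 11.8 FPKM with PP (log2 fold change -0.34 ± 0.069, limma adjusted p = 0.00118). Neither overlapped between treatments. *POLD2*, an accessory subunit of polymerase delta, fell by less, from 119.4, 114.6 and 113.0 to 105.4, 107.9 and 104.7 FPKM (log2 fold change -0.12 ± 0.034, limma adjusted p = 0.00682). *POLE2*, which binds the catalytic subunit of polymerase epsilon, was not called at 22.6, 20.5 and 20.9 against 21.4, 22.3 and 24.2 FPKM, and *POLD3* was at -0.08. The log2 ratio of *POLE* to *POLE2* was -0.05, 0.21 and 0.18 with PBS and -0.19, -0.28 and -0.47 with PP, without overlap (exact two-sided permutation p = 0.1, adjusted 0.1).

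PCNA is the sliding clamp that keeps polymerases on DNA, and the 5 RFC subunits open it and close it around the template. *PCNA*, the most abundant of the 52 genes by FPKM, had 310.3, 305.4 and 310.7 FPKM in the PBS libraries and 262.7, 264.5 and 261.6 FPKM in the PP libraries. It fell to 0.852 of its PBS mean with little spread on either side (log2 fold change -0.23 ± 0.027, limma adjusted p = 2.9e-05). The clamp loader did the reverse, with *RFC1*, *RFC2* and *RFC4* called higher, as were 38.1% of all tested genes. *RFC1*, the large subunit, rose from 29.5, 26.3 and 27.0 to 32.6, 33.9 and 34.9 FPKM (log2 fold change 0.28 ± 0.050, limma adjusted p = 0.00046). *RFC2* rose from 75.0, 75.9 and 74.9 to 86.2, 85.5 and 85.9 FPKM (0.19 ± 0.030, limma adjusted p = 0.000269). *RFC4* rose from 100.5, 97.8 and 102.5 to 108.8, 109.1 and 112.3 FPKM (0.13 ± 0.033, limma adjusted p = 0.00421). All 3 separated the treatments. *RFC3* (0.08) and *RFC5* (0.09) did not pass the test, though their PP values lay above their PBS values.

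RPA coats single-stranded DNA behind the helicase as a trimer of 3 different subunits, and its genes did not move together. *RPA1*, the large DNA-binding subunit, had 38.5, 39.5 and 41.4 FPKM in the PBS libraries and 31.4, 29.4 and 26.5 FPKM in the PP libraries. All PP values lay below the PBS values, with a PP mean of 0.731 of the PBS mean (log2 fold change -0.44 ± 0.059, limma adjusted p = 6.74e-05). *RPA2*, the subunit phosphorylated when forks stall, rose 1.11-fold from 47.1, 49.9 and 48.7 to 50.9, 56.4 and 54.3 FPKM (0.15 ± 0.044, limma adjusted p = 0.0128). Without PP replicate 2 that call was lost (0.11, limma adjusted p = 0.0583). *RPA3* had 20.1, 20.9 and 21.0 FPKM with PBS and 19.0, 19.97 and 18.2 FPKM with PP (-0.11 ± 0.046, limma adjusted p = 0.0457). Leaving out any 1 of 4 libraries (PBS replicate 2 or 3, PP replicate 1 or 3) ended its call, with log2 fold changes from -0.11 to -0.08.

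Both genes that finish Okazaki fragments on the lagging strand fell, beside 34.4% of all tested genes. *FEN1*, the flap nuclease, had 61.6, 61.8 and 63.1 FPKM with PBS and 57.3, 50.3 and 48.6 FPKM with PP (0.838 of the PBS mean, log2 fold change -0.25 ± 0.055, limma adjusted p = 0.00193). *LIG1*, which seals the nick, fell from 27.7, 29.9 and 30.2 to 25.7, 24.3 and 22.4 FPKM (0.824 of the PBS mean, log2 fold change -0.27 ± 0.056, limma adjusted p = 0.00138). The treatments did not overlap for either gene.

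The supply of deoxynucleotides held the largest fall. Ribonucleotide reductase turns ribonucleotides into deoxynucleotides. It has a large subunit, *RRM1*, and a small subunit that is made in S phase, *RRM2*, or is p53-inducible, *RRM2B*. *RRM2* had 70.2, 70.6 and 68.2 FPKM in the PBS libraries and 37.6, 40.1 and 40.5 FPKM in the PP libraries. No PP value came near a PBS value, and the mean fell to 0.566 of its PBS level, from 69.7 ± 1.27 to 39.4 ± 1.57 FPKM (log2 fold change -0.81 ± 0.039, 95% CI -0.89 to -0.72, limma adjusted p = 4.01e-08). Each PBS library held at least 7095 counts of it and each PP library at least 3962. *RRM1* fell by less, from 81.2, 78.9 and 77.4 to 61.8, 62.6 and 63.5 FPKM (0.791 of the PBS mean, log2 fold change -0.33 ± 0.034, limma adjusted p = 9.03e-06). *RRM2B*, not one of the 52, was not called at 18.7, 18.0 and 18.2 against 16.2, 17.7 and 17.6 FPKM.

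Within each library, *RRM2* stood to *RRM1* as 0.864, 0.895 and 0.881 with PBS and as 0.609, 0.640 and 0.639 with PP. Against *RRM2B* the ratio was 3.76, 3.91 and 3.75 with PBS and 2.32, 2.26 and 2.30 with PP. Neither ratio overlapped between treatments. On log2(FPKM + 1) these ratios differed by -0.47 and -0.72 (exact two-sided permutation p = 0.1 for each, adjusted 0.1). RefSeq listed 2 starts for *RRM2*, and the positions of the printed sites count from the downstream one. The window of the upstream start held a CCAAT word from -249 to -245, counted from the upstream start itself. Before the downstream start, 3 CCAAT words repeated with nearly the same flanks. They are shown as sites at chr2:10122609-10122629, chr2:10122639-10122659 and chr2:10122666-10122686 on the plus strand.
RRM2 site from -130 to -110: ggcgcagCCAATgggaagggt
RRM2 site from -100 to -80: ggcacagCCAATgggaagggc
RRM2 site from -73 to -53: accaaagCCAATgggaagggc

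*TYMS*, thymidylate synthase, makes dTMP from dUMP. It had 145.5, 145.2 and 150.8 FPKM in the PBS libraries and 104.5, 97.9 and 104.3 FPKM in the PP libraries, with a mean of 147.2 ± 3.12 against 102.2 ± 3.75 FPKM (0.695 of the PBS mean, log2 fold change -0.52 ± 0.036, limma adjusted p = 5.6e-07). All PP values were below all PBS values. The antisense neighbour *ENOSF1* overlaps 39.9% of the exon bases of *TYMS*, and how strand was used in counting was not given in the sources used here. *ENOSF1* was at 5.57 FPKM with PBS and 6.77 FPKM with PP (log2 fold change 0.24). The 150 bases before the *TYMS* start, at chr18:657503-657652 on the plus strand, held an E2F-type word read on the opposite strand.
TYMS before the start: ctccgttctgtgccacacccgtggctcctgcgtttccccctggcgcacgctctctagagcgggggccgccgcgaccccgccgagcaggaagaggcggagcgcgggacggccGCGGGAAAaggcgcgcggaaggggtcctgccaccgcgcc

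The remaining genes of nucleotide supply were not called. *TK1*, thymidine kinase of the salvage route, had a log2 fold change of 0.00 with a 95% confidence interval of -0.12 to 0.13, and *DUT*, which removes dUTP, was at -0.05. *TYMS*, which feeds the same dTMP pool from dUMP, had an interval of -0.60 to -0.44, and the difference between the genes was not tested.

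Chromatin assembly factor CAF-1 places histones on the new strands. Its large subunit *CHAF1A* rose from 31.4, 33.7 and 32.2 to 39.0, 37.7 and 36.5 FPKM without overlap (1.16-fold, log2 fold change 0.21 ± 0.042, limma adjusted p = 0.00106). *CHAF1B* was not called at 9.36, 9.40 and 9.003 against 8.72, 9.13 and 8.86 FPKM. The log2 ratio of *CHAF1A* to *CHAF1B* was 1.64, 1.74 and 1.73 with PBS and 2.04, 1.93 and 1.93 with PP (exact two-sided permutation p = 0.1, adjusted 0.1).

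**Figure D4:**
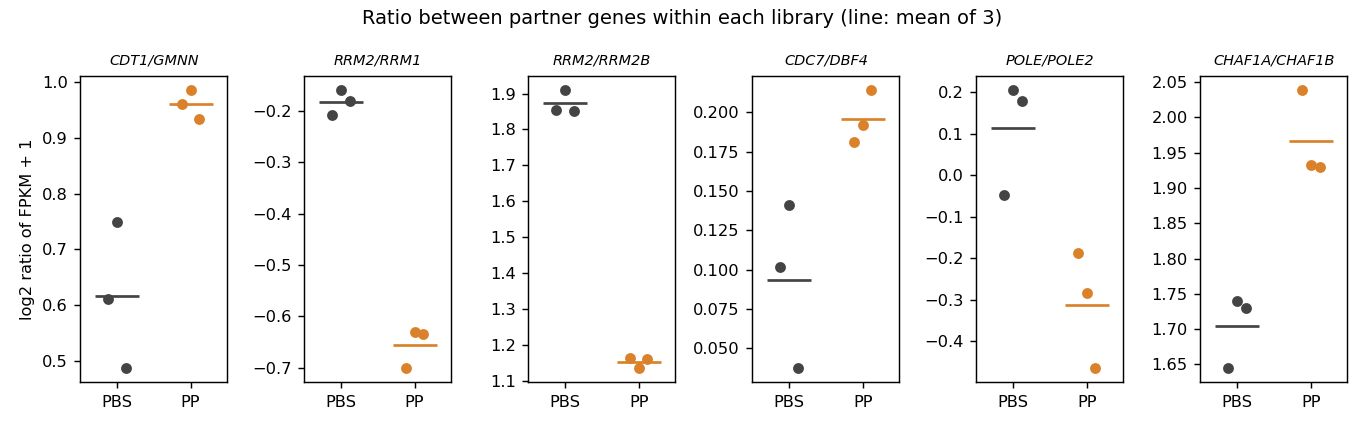
Log2 ratio of FPKM + 1 between 6 pairs of partner genes in each library, with PBS and PP as separate points and the mean as a line, each pair on its own scale. For all 6 pairs the 3 PP libraries lie outside the range of the 3 PBS libraries, upward for CDT1/GMNN, CDC7/DBF4 and CHAF1A/CHAF1B and downward for RRM2/RRM1, RRM2/RRM2B and POLE/POLE2. Single-gene values did not overlap for 75.0% of all tested genes either, and no such share was computed for ratios of other pairs.

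Other genes of the same processes, listed separately from the 52, were called in shares near or below those of all tested genes (38.1% higher, 34.4% lower) for origins and forks. Of 14 further origin factors, 5 rose (35.7%) and 4 fell (28.6%), with a median log2 fold change of 0.01. *MCMBP*, which binds MCM subunits outside DNA, rose from 23.5 ± 0.608 to 33.9 ± 0.698 FPKM (0.51, limma adjusted p = 1.07e-06). *TICRR*, which helps to fire origins, fell from 7.97 to 5.42 FPKM (-0.48, limma adjusted p = 3.21e-05), and *DBF4B*, an alternative activator of CDC7, from 9.30 to 7.03 FPKM (-0.35, limma adjusted p = 0.00154). Of 18 further fork factors tested, 6 rose and 6 fell (33.3% each). *EXO1*, an exonuclease of repair and replication, rose from 12.97 to 21.1 FPKM (0.66, limma adjusted p = 1.23e-06) and *RNASEH1*, which degrades RNA in hybrids with DNA, from 13.9 to 19.0 FPKM (0.43, limma adjusted p = 1.15e-05). *RNASEH2C*, a subunit of the RNase H2 enzyme, fell from 18.8 to 14.1 FPKM (-0.39, limma adjusted p = 3.13e-05).

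The other lists held more calls in 1 direction, beside 38.1% higher and 34.4% lower among all tested genes. Of 12 further nucleotide enzymes tested, 8 fell (66.7%) and none rose, with a median log2 fold change of -0.20. *SAMHD1* changed most of these, from 11.6 to 6.30 FPKM (-0.79, limma adjusted p = 6.46e-07), and it breaks deoxynucleotides down, unlike the enzymes that make them. *NUDT1*, which clears oxidised nucleotides, fell from 27.3 to 20.1 FPKM (-0.42, limma adjusted p = 0.000793). Of 13 further genes of replication-coupled chromatin, 7 fell (53.8%) and 3 rose (23.1%). *UHRF1*, which recruits maintenance methylation, fell from 32.0 to 18.2 FPKM (-0.78, limma adjusted p = 2.5e-06). The histone chaperones parted, with *ASF1B* falling from 100.9 to 64.9 FPKM (-0.63, limma adjusted p = 4.41e-07) and *ASF1A* rising from 21.4 to 31.8 FPKM (0.55, limma adjusted p = 1.99e-06).

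Of 11 genes of the S-phase checkpoint, 7 rose (63.6%, against 38.1% of all tested genes) and 1 fell (9.09%, against 34.4%). Their median log2 fold change was 0.18. *HUS1*, a subunit of the checkpoint clamp, rose from 9.01 to 13.4 FPKM (0.52, limma adjusted p = 1.89e-05). *USP1*, which removes ubiquitin from PCNA, rose from 77.6 to 105.2 FPKM (0.43, limma adjusted p = 2.3e-06), and the kinase gene *CHEK1* from 13.8 to 18.6 FPKM (0.40, limma adjusted p = 2.72e-05). Among 10 genes of the E2F family and its partners, 4 fell and 1 rose. The dimerisation partners *TFDP2* (21.2 against 13.3 FPKM, -0.64) and *TFDP1* (96.4 against 63.8 FPKM, -0.59) changed most, followed by *E2F2* (13.04 against 10.9 FPKM, -0.24), while *E2F1* was at -0.02 and not called.

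**Figure D5:**
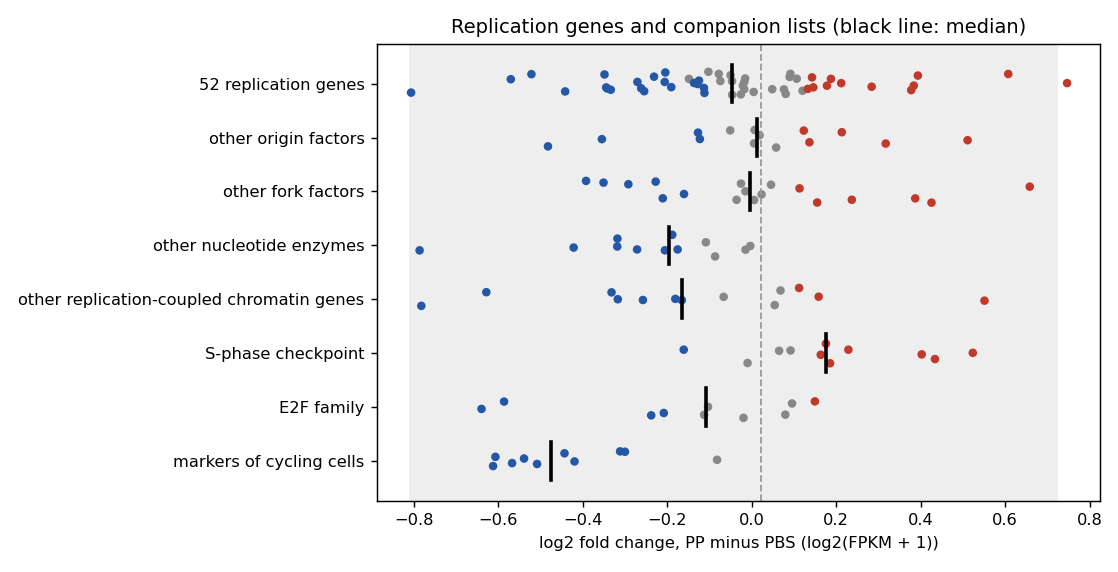
Log2 fold change (PP minus PBS) of each tested gene in the 52 replication genes and in the lists of related genes, as points coloured by call (red higher, blue lower, grey not called) with the median of each list as a black line, over a grey band from the 5th to the 95th percentile of all tested genes (-0.81 to 0.72) and a dashed line at their median (0.02). The medians run from -0.48 for markers of cycling cells to 0.18 for S-phase checkpoint genes, and the replication genes lie between them at -0.05.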

How the data were processed

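Libraries of NCI-H660 cells (PBS or PP, 3 each, grouped by their labels) were compared in the deposited table of FPKM values, which the authors made and normalised to transcript length and mapped fragments. The sources differ on how: the study's methods name Bowtie, hg19, RSEM, HTSeq-count and Cufflinks, and the submitters' processing notes name fastp, HISAT2, HTSeq and GRCh38. The methods also state duplicates per group where the labels give 3 libraries. Whole counts were recovered from the FPKM steps for 16133 genes (tolerance 0.01), and 776 genes above 0 in only 1 library were not recovered. The recovered totals of 29064154 to 32481049 counts served to state depth and for an alternative fit.

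Genes with a mean of at least 1 FPKM (11726) were fitted with limma 3.58.1 (R 4.3.3; lmFit, eBayes with trend) on log2(FPKM + 1). Fold changes on this scale understate the change of low genes. P-values were adjusted by Benjamini-Hochberg over all tested genes, and calls made at an adjusted p under 0.05. Ratios of partner genes were tested by exact permutation. The steps were tested on simulated data. Members and lists were chosen with earlier results of these data known. Named genes were, per role, up to 3 called members with the largest change, every member called higher and the partners in ratios, and per related list the 3 called genes with the largest change. CCAAT and CACGTG were added to the motif search after the sequences were seen. Same-numbered libraries did not deviate together (correlations -0.211, -0.014 and -0.127). Replicate libraries differed by more than sampling noise (chi-square per degree of freedom 3.36 to 6.91). Some marker and related genes on these lists are not reported here by name.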

Additional observations from a re-analysis of the deposited data

How the results depend on the processing

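All 6 ratios between partners, the counts of members called higher and lower, and the count of 0 past the study's cutoff stayed on the same side or within 1.5 times under the alternatives run for them, and no called member changed sign under any alternative. The weakest calls were *ORC2*, *CLSPN*, *POLA2* and *RPA3*. All of these were lost with the replicate number as a block, which left 28 of the 32 calls and gave 11 higher and 17 lower. The labels do not say whether same-numbered libraries were paired. Calls kept were 32 with a pseudocount of 0.1 or a filter at 5 FPKM, 29 without a filter, 31 with median-ratio size factors, 30 without the intensity trend and 31 with limma-voom on recovered counts, which called 4524 of all tested genes higher and 4083 lower against 4464 and 4032. Leaving out 1 library kept 28 or 29, and the count called higher was 11 to 12 and lower 18 to 19. Of the members not called, *DBF4* and *MCM3* passed the threshold under some of these settings, *GINS3* without PBS replicate 3 (0.16, limma adjusted p = 0.0378) and *GINS4* without PP replicate 1 (-0.16, limma adjusted p = 0.0397). The log2 fold change of *TK1* was -0.0182 with median-ratio size factors. With 1 library left out, uncalled genes near 0 changed sign: *CDC45* ranged from -0.0687 to 0.054, *CDC7* from -0.1034 to 0.0112, *MCM7* from -0.0415 to 0.0113, *ORC6* from -0.0621 to 0.0216, *POLA1* from -0.0411 to 0.007 and *TK1* from -0.0404 to 0.0651. Where a call changed, the cause was not tested. Depth was not short for the members, with at least 479 counts in every library, but 3 libraries a group limit how small a change can be called.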
